A study of Bos taurus and Mus musculus with 16 samples.

Results

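Genes of fluid transport into the blastocoel, the cavity of the blastocyst, were followed through embryos edited at Tead4. The 8 genes, taken by symbol with case ignored, are the sodium pump beta subunits Atp1b1 and Atp1b3, the aquaporins Aqp3, Aqp7, Aqp8, Aqp9 and Aqp11, and the scaffold gene Slc9a3r1. Of these 8 genes, 7 had a row among the 16655 genes of the mouse table and 5 among the 14852 genes of the bovine table. The minimum for a test, an average of 10 normalized reads across a table's samples, was reached by 5 of them in mouse (of 11386 such genes) and by 4 in cattle (of 8884). Aqp8 had no row under that symbol in the mouse table, and AQP7, AQP8 and AQP9 had none in the bovine table, so their levels there are not analysed here. Aqp7 and Aqp11 in mouse and ATP1B1 in cattle had a row but stayed below the minimum.

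The blastocoel fills because trophectoderm cells, the outer epithelium of the embryo, pump sodium inwards and water follows. The Na/K-ATPase does the pumping from the basolateral membrane: its alpha subunit carries out catalysis and transport, and its beta subunit is needed to fold the pump and deliver it to the membrane. Aquaporins are membrane channels, of which Aqp3, Aqp7 and Aqp9 pass glycerol as well as water, Aqp8 passes water, and Aqp11 sits largely on internal membranes. Slc9a3r1 encodes NHERF1, a PDZ-domain scaffold that ties membrane proteins such as sodium-proton exchangers to ezrin and thereby to actin.

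The study asked what TEAD4, a DNA-binding partner of the Hippo pathway coactivator YAP and a trophectoderm regulator in mouse, does in the preimplantation embryos of both species. Polyadenylated RNA was sequenced from mouse morulae on day 3.25 and from bovine blastocysts on day 7.0 after fertilization. In each species the control group came from zygotes given only the mRNA of the cytosine base editor BE3 by injection, and the edited group from zygotes that received BE3 mRNA together with guide RNAs against Tead4 (mouse) or TEAD4 (cattle). All groups therefore carried the editor, and the controls received no guide RNA. There were 2 control and 2 edited mouse samples, and 6 control and 6 edited bovine samples. The labels give neither strain or breed, nor the number of embryos per sample, nor the share of edited alleles, nor whether samples came from separate injections, so p-values cover only sample-to-sample spread, which may be technical. Species and stage differed together and cannot be told apart.

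In mouse, normalized reads of Tead4 were 458 and 519 in control morulae against 57.2 and 76.5 after editing, and it fell by 2.86 on the log2 scale (limma adjusted p = 5.37e-09). In cattle TEAD4 ranged from 61.2 to 125 in control and from 22.6 to 65.6 in edited samples, with a log2 difference of -1.25 that did not pass with limma (adjusted p = 0.235) or edgeR (adjusted p = 0.260) and passed with DESeq2 (adjusted p = 0.00660). Reads in genes numbered 3642907 to 4187826 in the mouse control samples and 4386305 to 6109425 in the edited ones, so that both edited libraries were deeper, and depth and group cannot be told apart there. Bovine totals were lower and overlapped, at 934078 to 2501592 in control and 817329 to 2259064 in edited samples. Of the trophectoderm markers in mouse, Krt8 (log2 -1.74), Krt18 (-3.79), Gata3 (-2.20) and Cdx2 (-2.06) fell. The Cdx2 call was lost without control replicate 1 (limma adjusted p = 0.0576) or 2 (0.0682), and the Krt18 call with robust limma (0.0552). Of the pluripotency factors, Pou5f1 (1.40) rose, while Nanog (-0.58, limma adjusted p = 0.122) and Sox2 (1.04, adjusted p = 0.117) did not pass. In cattle 0 of 7 such markers passed under limma, beside 0.0113% of all tested genes. At an unadjusted p under 0.05 there was 1, TEAD4, beside 5.88% of all tested genes. KRT8 stood at 5633 to 14807 normalized reads over all samples, and CDX2 was below the minimum. Cumulus and granulosa markers had a row for 2 of 8 genes in mouse, with summed levels of 8.85 to 14.5 in control and 14.9 to 30.5 in edited samples, and blood markers for 2 of 8, with 1.26 to 14.5 and 9.92 to 39.1. In cattle the same sums were 7.99 to 31.0 in control and 8.03 to 20.4 in edited samples for 4 of 8 cumulus markers, and 6.85 to 25.4 and 4.24 to 20.7 for 3 of 8 blood markers. Sperm markers had no row in mouse and reached 19.9 in control and 14.01 in edited samples in cattle for 2 of 6. The part of depth and of these cells in the results below was not tested.

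The aquaporins are shown first by the part of their coding sequence that makes them channels. Aquaporins share 2 short loops that meet in the middle of the pore, each classically an asparagine-proline-alanine box. In-frame codons for that box (AAC or AAT, then CCN, then GCN) and for its variants with GCN, GCN, with CCN and a serine codon (TCN, AGC or AGT) or with CCN and a cysteine codon (TGC or TGT) were searched on the coding strand of GENCODE M21 transcripts. In the 8 stretches below, written 5′ to 3′ in transcript sense, capitals mark the 9 bases of the box, given with GRCm38 coordinates on the minus strand.
Aqp3, codon 83, chr4:41094819-41094827: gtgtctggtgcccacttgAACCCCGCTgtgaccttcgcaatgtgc
Aqp3, codon 215, chr4:41093841-41093849: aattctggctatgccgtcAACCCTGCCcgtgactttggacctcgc
Aqp9, codon 84, chr9:71132741-71132749: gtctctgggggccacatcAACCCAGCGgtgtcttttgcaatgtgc
Aqp9, codon 216, chr9:71122850-71122858: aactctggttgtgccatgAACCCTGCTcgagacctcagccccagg
Aqp7, codon 79, chr4:41035611-41035619: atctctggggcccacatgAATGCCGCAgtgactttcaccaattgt
Aqp7, codon 211, chr4:41034813-41034821: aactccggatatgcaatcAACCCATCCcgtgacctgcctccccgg
Aqp11, codon 99, chr7:97737685-97737693: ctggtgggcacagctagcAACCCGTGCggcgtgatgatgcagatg
Aqp11, codon 216, chr7:97729053-97729061: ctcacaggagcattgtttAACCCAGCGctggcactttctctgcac

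Aqp3 and Aqp9, the aquaporins with the most reads in mouse morulae, held the classical box at both places. Aqp8, which had no row among the mouse genes, held it at both places as well, at codons 92 and 210. Aqp7 and Aqp11, which had at most 16 reads in a mouse sample, held a variant in at least 1 of their boxes: alanine-alanine and proline-serine codons in Aqp7, and proline-cysteine codons in the first box of Aqp11. The classical pattern occurs in 7.33% of 21565 mouse coding sequences (1 per gene, of unequal length) and in 0.691% it occurs 2 or more times. Its variants occur in 7.23%, 8.84% and 2.36% of them, in the order given above. The alanine-alanine pattern had a further match in Aqp7, at codon 288. These matches describe letters of the sequence and no measurement of the channels. Aqp7 and Aqp3 are neighbours on chromosome 4 of GRCm38, both on the minus strand, with 44582 bases between them.

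In the mouse morulae 0 of the 5 tested genes passed in the limma test across all genes at an adjusted p of 0.05, beside 15.3% of all tested genes, and edgeR and DESeq2 on the recovered reads called 0 as well. At an unadjusted p under 0.05 limma gave 2 of 5 (Aqp3 and Slc9a3r1), beside 28.6% of all tested genes. The groups did not overlap for 3 of 5 (Atp1b3, Aqp3 and Aqp9), all higher in the edited embryos. Among all tested genes, 28.6% did not overlap and were higher. In either direction, the groups did not overlap for 51.4% of all 16655 mouse genes without the minimum. The 5 genes had a median log2 difference of 0.30, beside -0.0049 for all tested genes, and the median size of a difference over all tested genes was 0.40 in either direction. In these whole embryos, fewer cells of a type and less RNA per cell cannot be told apart.

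**Figure D1:**
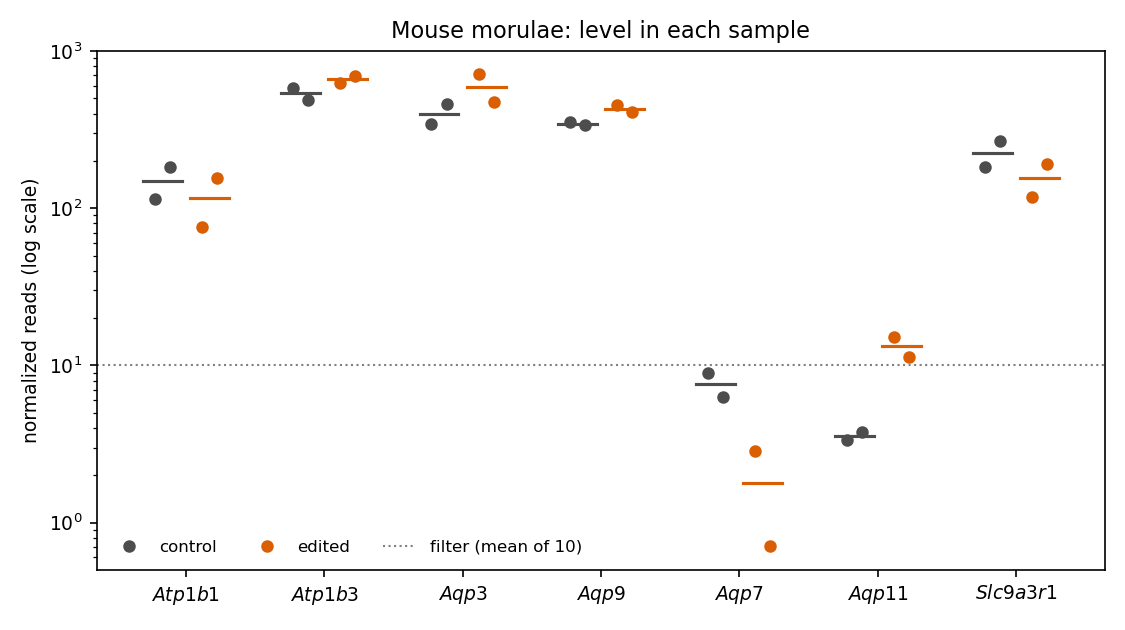
Normalized reads (log axis) of the 7 genes with a row in each mouse sample, 2 control (grey) and 2 edited (orange). Points are samples, horizontal bars are group means, and the dotted line marks the minimum mean of 10; Aqp7 and Aqp11 lie around or below it, and the edited points lie above the control points for Atp1b3, Aqp3, Aqp9 and Aqp11.

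Among the pump subunits, Atp1b3 (GRCm38 chr9:96332655-96364442, minus strand), the beta-3 subunit, had 584 and 489 normalized reads in the control morulae and 626 and 691 in the edited ones. Both edited samples were above both controls. Its log2 difference came to 0.30 ± 0.19 (SE, n = 2 per group), with a 95% interval of -0.09 to 0.69 and a limma adjusted p of 0.313. Atp1b1 (chr1:164437109-164458355, minus strand), the beta-1 subunit, had 115 and 183 in control and 76.3 and 155 in edited samples. The groups overlapped, and within each group the samples differed by more than the group means did. Its log2 difference was -0.42 ± 0.31 (95% interval -1.06 to 0.22, limma adjusted p = 0.407). The Atp1b1 locus overlaps Nme7, which is also in the table, and with no strand setting given in the sources used here reads of the overlap cannot be assigned with certainty.

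Among the mouse aquaporins, Aqp3 (chr4:41092722-41098183, minus strand), a glycerol and water channel, had 342 and 458 normalized reads in control and 710 and 473 in edited morulae. Both edited samples were higher, but the lower of them exceeded the higher control by little. The log2 difference of 0.55 ± 0.22 (95% interval 0.10 to 0.99, n = 2 per group) had an unadjusted limma p of 0.0173 and an adjusted p of 0.0858. The adjusted p was 0.0734 with edgeR, 0.125 with DESeq2 and 0.141 in the authors' deposited table, so that the gene stayed above the threshold with each of these tools. With each sample scaled to the same total, which moved the median of all genes to 0.12, the Aqp3 difference was 0.67 and passed (limma adjusted p = 0.0358).

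Aqp9 (chr9:71110659-71168682, minus strand), a further glycerol and water channel, had 354 and 336 normalized reads without guides and 452 and 407 after editing. The groups did not overlap, and the samples of each lay close together. Edited minus control it came to 0.31 ± 0.20 on the log2 scale (95% interval -0.10 to 0.73, limma adjusted p = 0.322). The Aqp9 locus overlaps 2 annotated genes, of which 1 is in the table.

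Aqp7 (chr4:41033074-41048139, minus strand) and Aqp11 (chr7:97724006-97738289, minus strand) rested on few reads. For Aqp7, a glycerol channel, the control samples held 8 and 5 reads (8.94 and 6.32 normalized) and the edited samples 3 and 1 (2.86 and 0.709). For Aqp11 the control samples held 3 reads each (3.35 and 3.79 normalized) and the edited samples 16 each (15.3 and 11.3). Neither gene's groups overlapped, Aqp7 being lower and Aqp11 higher in the edited morulae, beside 51.4% of all genes of the table without a minimum whose groups did not overlap in either direction. Entered without the minimum, they had log2 differences of -1.73 (limma adjusted p = 0.247) and 1.63 (adjusted p = 0.167), values that depend on the pseudocount of 1. The value of 3 reads was 2.13 to 3.79 normalized reads in these samples, so the Aqp11 control values and the edited Aqp7 values are at or below that limit.

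Per length of the principal transcript, a scale on which genes can be compared, Aqp3 stood highest of the 4 aquaporins in each of the 4 mouse samples. It had 194 and 259 normalized reads per kilobase in control samples and 402 and 268 after editing, and Aqp9 had 134, 127, 171 and 154 in the same order. As shares of the 4 aquaporins, Aqp3 made up 58.3% and 66.5% in control and 69.6% and 63.0% in edited morulae, ranges that overlap. Aqp9 made up 40.3% and 32.6%, then 29.5% and 36.2%, which overlap as well. Aqp7 held 1.07% and 0.642% in control and 0.196% and 0.0660% in edited samples, and Aqp11 0.270% and 0.260%, then 0.706% and 0.714%. Aqp7 thus stood above Aqp11 in both control samples and below it in both edited samples, on the few reads given above. With lengths from the union of exons, chosen after seeing the data, the mean Aqp3 share in control was 71.3%, and the order of Aqp3 above Aqp9 held in the 4 samples.

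Slc9a3r1 (chr11:115163341-115181181, plus strand), the NHERF1 scaffold, had 182 and 269 normalized reads in control and 117 and 192 in edited morulae. The groups overlapped, with the higher edited sample above the lower control. They differed by -0.56 ± 0.27 on the log2 scale (95% interval -1.11 to -0.01, n = 2 per group), with an unadjusted limma p of 0.0473 and an adjusted p of 0.168. The mouse differences rest on 2 libraries a group. Without edited replicate 2 the log2 difference was 0.84 for Aqp3, -0.91 for Slc9a3r1 and -0.92 for Atp1b1. Without edited replicate 1 it was 0.26 for Aqp3, -0.20 for Slc9a3r1 and 0.088 for Atp1b1.

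In the bovine blastocysts 0 of the 4 tested genes passed under limma, beside 0.0113% of all tested genes, which is 1 gene of 8884 (the predicted locus LOC101905257, named after its value was seen). At an unadjusted p under 0.05 there were 0 of 4, beside 5.88% of all tested genes, and edgeR and DESeq2 called 0 of 4. The groups overlapped for all 5 genes with a row, while 0.248% of all tested genes did not overlap. The median log2 difference of the 4 genes was 0.015, beside 0.011 for all tested genes.

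**Figure D2:**
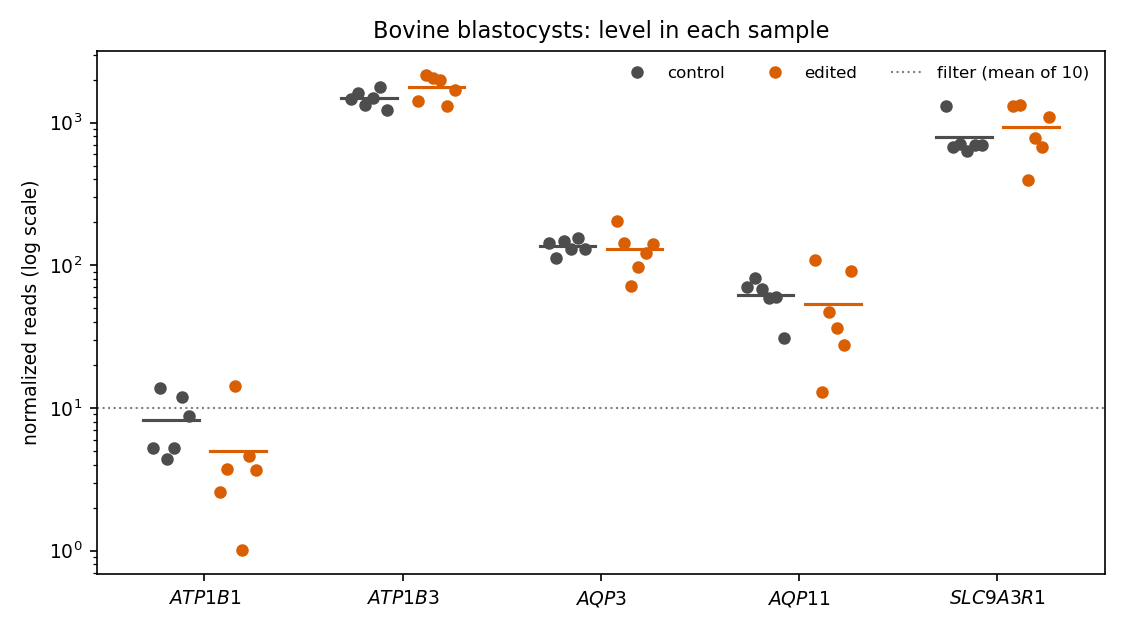
Normalized reads (log axis) of the 5 genes with a row in each bovine sample, 6 control (grey) and 6 edited (orange). Points are samples, horizontal bars are group means, and the dotted line marks the minimum mean of 10; the groups overlap for every gene, and the edited AQP11 and SLC9A3R1 points spread from 12.97 to 109 and from 395 to 1332.

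ATP1B3, the beta-3 pump subunit, ranged in control blastocysts from 1223 to 1792 normalized reads with a median of 1472, and in edited ones from 1299 to 2175 with a median of 1851. Of the edited samples, 3 lay above every control and the others lay among them. On the log2 scale the groups differed by 0.24 ± 0.17 (SE, n = 6 per group; 95% interval -0.10 to 0.59, limma adjusted p = 0.795). ATP1B1, the beta-1 subunit, was near the limit of the libraries, with 3 to 21 reads per control sample and 1 to 10 per edited sample. In normalized reads its lowest, median and highest values were 4.37, 7.05 and 13.8 in control and 1.003, 3.70 and 14.1 in edited samples. The highest edited sample was above every control, and 4 of the others were below the lowest control. Entered without the minimum, ATP1B1 had a log2 difference of -0.81 (limma adjusted p = 0.894).

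AQP3 had a lowest, median and highest value of 112, 137 and 156 normalized reads in control blastocysts and of 72.2, 131 and 203 in edited ones. The edited samples lay on both sides of the control range, and the medians were close. On the log2 scale the groups differed by -0.14 ± 0.21 (95% interval -0.58 to 0.30, limma adjusted p = 0.907). AQP11 had 31.0, 64.2 and 81.6 in control and 12.97, 41.4 and 109 in edited samples, again with edited samples on both sides. The log2 difference was -0.46 ± 0.39 with limma (95% interval -1.27 to 0.35, adjusted p = 0.819) and -0.15 with edgeR.

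SLC9A3R1 had a lowest, median and highest value of 634, 699 and 1312 normalized reads in control blastocysts and of 395, 935 and 1332 in edited ones. Control replicate 1 was nearly as high as the highest edited samples, and the other controls lay between 634 and 714. The log2 difference was 0.17 ± 0.26 (95% interval -0.38 to 0.72, limma adjusted p = 0.907), and 0.33 without that control sample. Leaving out single samples gave 0.04 to 0.39, the highest without edited replicate 3. For each of the 4 tested bovine genes, changes within its own 95% interval are not excluded by these samples. The lowest limit, -1.27, was that of AQP11 alone, and the highest, 0.72, was that of SLC9A3R1 alone.

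**Figure D3:**
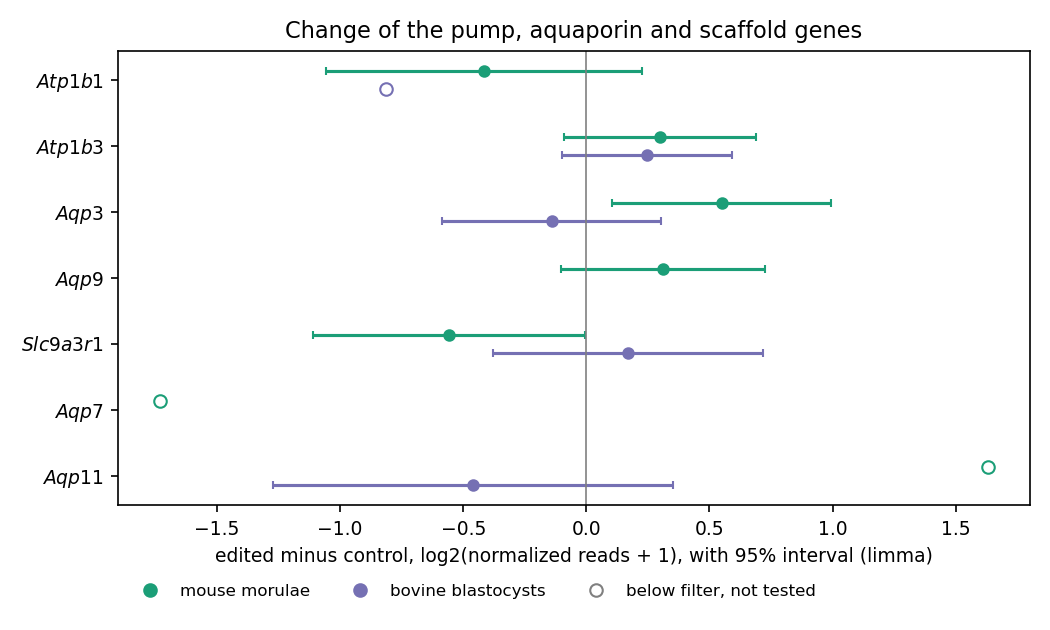
Edited minus control difference in log2(normalized reads + 1) for each gene, mouse morulae in green (2 against 2 samples) and bovine blastocysts in purple (6 against 6). Filled points carry 95% limma intervals, and open points are genes below the minimum with no interval; only the mouse Aqp3 and Slc9a3r1 intervals leave out 0, and neither gene passed after adjustment.

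The difference between the species' responses was tested for the 3 genes that reached the minimum in both, among 7073 genes with the same symbol tested in both, of which 6.07% passed. For Aqp3 the mouse log2 difference exceeded the bovine one by 0.69 ± 0.30 (95% interval 0.08 to 1.30), with an unadjusted p of 0.0280 and an adjusted p of 0.169 from the limma standard errors. For Slc9a3r1 the mouse minus bovine value was -0.73 ± 0.37 (95% interval -1.48 to 0.03, limma adjusted p = 0.250). For Atp1b3 it was 0.05 ± 0.25 (95% interval -0.45 to 0.56, limma adjusted p = 0.930), so differences between species from -0.45 to 0.56 are not excluded. None of the 3 passed. Without mouse edited replicate 2 the mouse minus bovine value was 0.98 for Aqp3 and -1.08 for Slc9a3r1.

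The beta subunits can be set against each other within a sample, since both come from the same library. In the mouse samples the log2 ratio of Atp1b1 to Atp1b3 was -2.33 and -1.41 in control and -3.02 and -2.15 in edited samples, so the groups overlapped. Group means were -1.87 ± 0.65 and -2.59 ± 0.61 (SD, n = 2 each), a difference of -0.71 with an exact permutation p of 0.667 (two-sided, where 0.333 is the smallest that 2 against 2 allows). In the bovine samples the ratio was -7.42 ± 0.54 in control and -8.48 ± 0.97 in edited samples (SD, n = 6 each), a difference of -1.06. The exact two-sided permutation p was 0.0476, and 0.0952 after Benjamini-Hochberg adjustment over the 2 comparisons, so the difference did not pass. The bovine ratio depends on the 1 to 21 reads of ATP1B1 per sample. Edited replicates 3 (-7.09) and 5 (-7.86) stood within the control range of -7.95 to -6.76, while the lowest edited sample was at -9.96. Per length in mouse, Atp1b1 made up 13.2% and 22.5% of both beta subunits in control and 8.60% and 14.7% in edited samples, again overlapping. Atp1b3 was thus the more abundant beta transcript per length in the 4 mouse samples, with 293, 245, 314 and 347 normalized reads per kilobase, while Atp1b1 had 44.6, 71.1, 29.6 and 59.9. No per-length comparison was made in cattle.

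**Figure D4:**
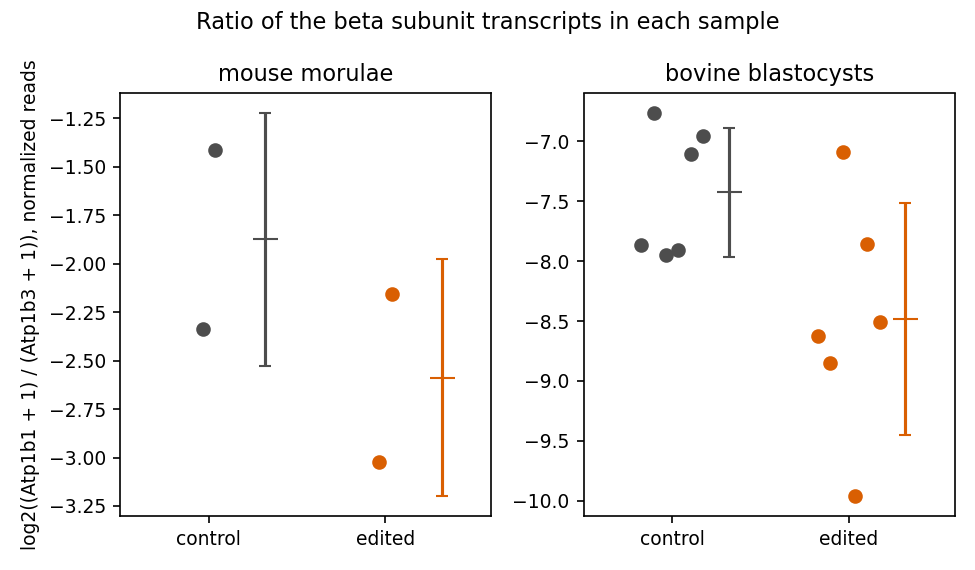
Log2 ratio of Atp1b1 to Atp1b3, each plus 1 normalized read, in each mouse (left) and bovine (right) sample, with separate vertical scales. Points are samples, and the bar beside them is the group mean with its SD; the edited mean is lower by 0.71 in mouse and by 1.06 in cattle, and the groups overlap in both.

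Of 20 further pump subunits and regulators, 10 had a row and 5 were tested in mouse. Of these, 0 passed under limma, beside 15.3% of all tested genes, and 1 had an unadjusted p under 0.05, beside 28.6%. The median log2 difference of the 5 was -0.08, beside -0.0049 for all tested genes. In cattle 8 of the 20 were tested. There 0 passed under limma, beside 0.0113% of all tested genes, and 0 had an unadjusted p under 0.05, beside 5.88%. The median of the 8 was -0.0053, beside 0.011 for all tested genes. Of 10 other aquaporins, 0 had a row in the mouse table and 1 had a row in the bovine table, below the minimum.

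Sodium and proton entry was represented by 17 genes, of which 6 were tested in mouse; 1 rose and 1 fell, beside 6.92% of all tested genes that rose and 8.38% that fell. Their median log2 difference was 0.19. Slc12a2, which encodes the sodium-potassium-chloride cotransporter NKCC1, rose by 0.67 ± 0.22 (SE, limma adjusted p = 0.0374), from 389 and 484 in control to 906 and 530 in edited samples. The Slc12a2 call was lost without the minimum (adjusted p = 0.0680) and without control replicate 1 (0.361), control replicate 2 (0.104) or edited replicate 1 (0.445). The exchanger gene Slc9a3, NHE3, averaged 5.40 and 5.23 normalized reads in control and edited samples and was not tested.

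Of 15 genes of chloride, bicarbonate and potassium pathways, 11 were tested in mouse. Of these, 3 rose and 0 fell, beside 6.92% of all tested genes that rose and 8.38% that fell. The median log2 difference of the 11 was 0.00, beside -0.0049 for all tested genes. The 3 were the calcium-activated potassium channel gene Kcnn4, the 2-pore potassium channel gene Kcnk5 and the potassium-chloride cotransporter gene Slc12a7. Kcnn4 had 17.9 and 24.0 normalized reads in control samples and 60.1 and 102 after editing (lower value first), and rose by 1.87 ± 0.41 (SE, limma adjusted p = 0.00253). That call held in each fit that left out a library. Kcnk5 had 67.0 and 65.8 in control and 303 and 99.9 in edited samples, and rose by 1.38 ± 0.35 (limma adjusted p = 0.00840). Without edited replicate 1 the Kcnk5 difference was 0.58 (adjusted p = 0.343), and without control replicate 1 or 2 the adjusted p was 0.0649 and 0.0661. Slc12a7 rose by 0.80 ± 0.19 (limma adjusted p = 0.00535), from 360 ± 11.3 to 629 ± 20.9 normalized reads (SD, n = 2 each), with an adjusted p of 0.0751 and 0.103 without control replicate 1 or 2.

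Of 8 partners of the NHERF1 scaffold, 5 were tested in mouse. Of these, 1 rose and 0 fell, beside 6.92% of all tested genes that rose and 8.38% that fell. The 1 that rose was Ezr, which encodes ezrin, the linker that binds NHERF1 to actin. Ezr had 371 to 402 normalized reads in control and 654 to 698 in edited morulae, and rose by 0.81 ± 0.19 (SE, limma adjusted p = 0.00493), while the partners' median was -0.19. Without control replicate 1 or 2 the adjusted p of Ezr was 0.114 and 0.0626. In the same samples Slc9a3r1 itself had the log2 difference of -0.56 given above, which did not pass. In cattle EZR ranged from 2836 to 4621 in control and from 3922 to 6654 in edited blastocysts, overlapping groups with a log2 difference of 0.48 ± 0.17 (unadjusted p = 0.0108, limma adjusted p = 0.792).

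In cattle 0 genes of these 3 lists passed under limma, beside 0.0113% of all tested genes. The counts were 0 of 5 tested for sodium and proton entry (median -0.22), 0 of 7 for chloride, bicarbonate and potassium (-0.12) and 0 of 4 scaffold partners (-0.25). The median for all tested genes was 0.011. At an unadjusted p under 0.05 there was EZR alone, beside 5.88% of all tested genes. SLC9A3 was below the minimum. Of the 6 genes that passed in mouse, Ezr and Slc12a2 were tested in both species, and the difference between species (mouse minus bovine) was 0.32 ± 0.26 for Ezr (limma adjusted p = 0.494) and 0.89 ± 0.44 for Slc12a2 (adjusted p = 0.227), neither of which passed.

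**Figure D5:**
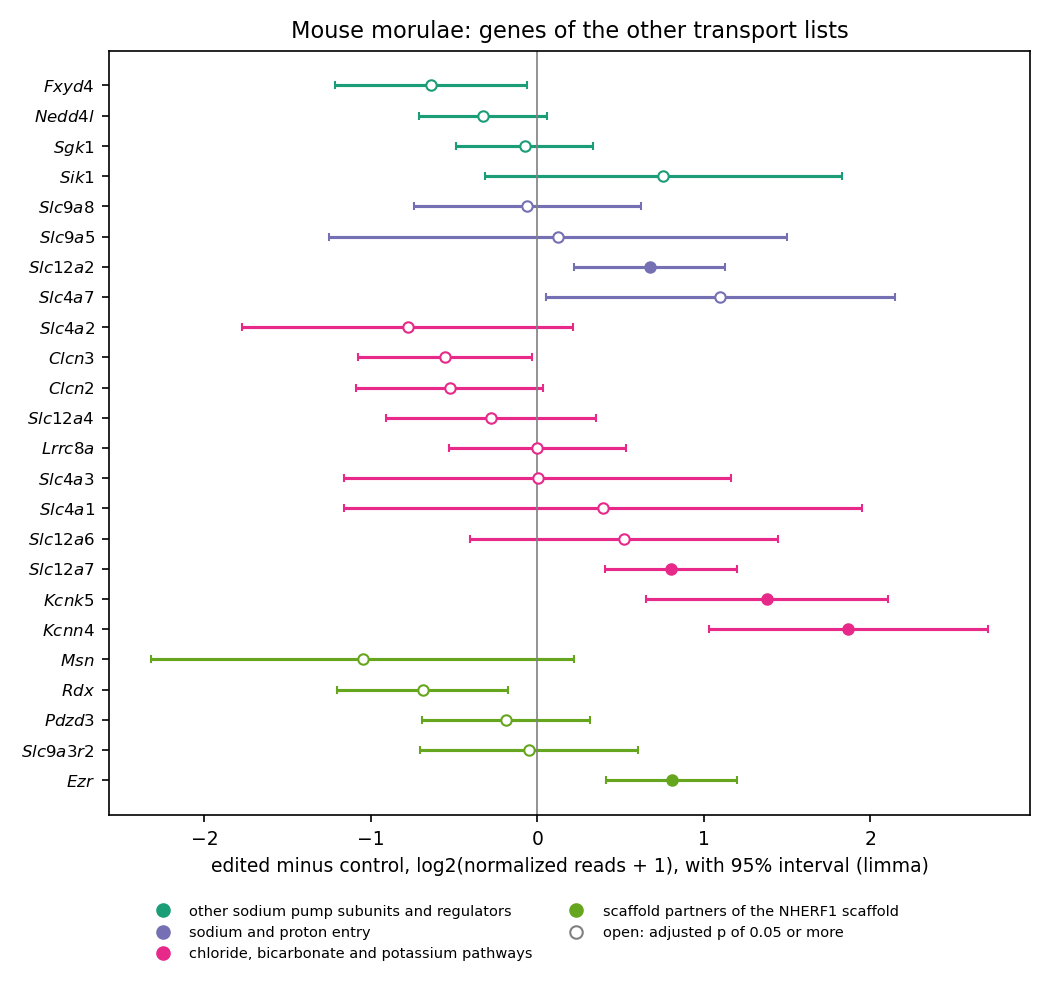
Edited minus control difference in log2(normalized reads + 1) with its 95% limma interval for tested mouse genes of the other transport lists, coloured by list; not every tested gene is shown. Filled points passed at an adjusted p of 0.05: Slc12a2, Slc12a7, Kcnk5, Kcnn4 and Ezr lie between 0.67 and 1.87.

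Over the 12 bovine samples, the genes whose level followed each of these genes most closely were sought among about 2289 genes averaging at least 100 normalized reads, by Pearson's r of log2(value + 1). These values are descriptions, since the 12 samples share libraries and normalization and mix both groups. Each r given was also picked as among the highest of about 2289, and what such picking gives by itself was not tested. For ATP1B3 they were PMPCB (0.89), TMEM14C (0.86) and GNAI3 (0.85), and for AQP3 MCM4 (0.84), H2AFX (0.82) and NDUFS5 (0.82). For AQP11 they were DLC1 (0.81), CTSB (0.78) and NAA40 (0.77), and for SLC9A3R1 ATP5F1E (0.82), RAB14 (0.82) and ELOVL1 (0.79). No gene appeared for more than 1 of the 4. The 4 mouse samples are too few for such a ranking.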

How the data were processed

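Libraries of polyadenylated RNA were made by a Smart-seq2 procedure primed with oligo(dT), per the labels' protocols. The tools were Trimmomatic, HISAT2, featureCounts and DESeq2 and the builds mm10 and ARS-UCD1.2, per the submitters' processing notes; versions, annotation and strand setting are not given in the sources used here. The deposited signal values are read counts per gene in 1 table per species, scaled by the authors with 1 factor for each sample (per the file headers and from the values). Division by the value of 1 read gave whole numbers, within 0.05, for 100% of values. The authors' deposited log2 fold changes, p-values and adjusted p-values were only quoted, and the authors' deposited test statistic, treated as a score, was not used.

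Groups came from the sample titles, and each table was tested alone. Genes with a mean of at least 10 entered limma 3.58.1 under R 4.3.3 as log2(value + 1), with a trend on the mean level and two-sided tests, and Benjamini-Hochberg adjustment over all tested genes; low genes differ by less on this scale than on a plain ratio. The recovered reads were also tested with edgeR 4.0.16 (quasi-likelihood) and DESeq2 1.42.0. The standard error of a species difference combined both limma errors as a root sum of squares, with Satterthwaite's degrees of freedom. The limma script was tested on simulated data with 200 changed genes. A value of 3 reads was chosen as a limit for low levels, although samples also hold lower values. That limit covers counting error only, and it came to 1.71 to 5.56 normalized reads in the bovine samples.

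Mouse coordinates, lengths and coding sequences are from GENCODE M21 (GRCm38, the same assembly as mm10), which held 89.1% of the mouse names. A RefSeq table of another build (ARS-UCD2.0) held 95.1% of the bovine names and served for names only; it lists SLC9A3R1 as NHERF1. Named were the 8 genes whether or not they passed, Tead4 and Slc9a3, in each list the passing genes of largest change (at most 4), the most alike bovine genes, and markers of the embryo's cell types. A few of these genes enter counts only and are not reported here by name. The 8 genes and the lists were chosen with earlier results of these data known. Alternatives were other pseudocounts, minimums, scalings and tools, a replicate block, and each library left out in turn.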

Additional observations from a re-analysis of the deposited data

Results flagged for a closer look

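Bovine ATP1B1 in edited replicate 3 was 14.1 normalized reads (10 reads) while the other edited samples lay between 1.003 and 4.59. Its gap to the nearest sample was 0.727 of the group's range, above Dixon's 95% critical value of 0.625 for 6 samples. Bovine SLC9A3R1 in control replicate 1 was 1312 normalized reads while the other controls lay between 634 and 714, a gap of 0.882 of the range. Of the genes' bovine groups of 6 and their ratio, 12 groups were examined in this way, and chance marks about 1 group in 20.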

How the results depend on the processing

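Over 162 alternative fits of single genes, 156 kept the direction and the side of the threshold, 4 passed that had not and 2 turned direction; the cause was not tested. The 4 were the 3 mouse genes without edited replicate 2 and Aqp3 with equal totals, given in the report, so the number of mouse genes of the set that passed was 0 to 3 with a library left out and 1 with equal totals. A lone sample left in a mouse group was assumed to vary like the other group. The 2 that turned were mouse Atp1b1, 0.088 without edited replicate 1 (range -0.92 to 0.088 with a library left out), and bovine AQP3, 0.013 without edited replicate 3 (range -0.28 to 0.013). Over all mouse genes, 580 to 2588 passed with a library left out, against 1742; the lowest counts, 580 and 601, came without control replicate 1 and 2, which leaves 1 control. With equal totals 1110 mouse genes were higher and 682 lower, against 788 and 954. In cattle 1 gene passed with any library left out and 5 with DESeq2, and 0 of the set passed in each fit. For the species difference, 0 to 2 genes passed with a library left out. That of Atp1b3 ranged from -0.074 to 0.18 with a library left out: it was -0.074 without mouse control replicate 2, -0.017 without mouse edited replicate 2, -0.0037 without bovine control replicate 5, and -0.0065 and -0.032 without bovine edited replicates 1 and 5. The mouse beta subunit ratio differed by -1.18 to -0.253 with a library left out. The bovine one differed by -1.34 to -0.762 (exact permutation p from 0.00866 to 0.0996), and by -0.708 to -1.15 with other pseudocounts. The unadjusted p exceeded 0.05 without control replicate 2, 5 or 6 or edited replicate 1, 2, 4 or 6.

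Samples share replicate numbers across groups, but the numbers were not shown to pair them. Same-numbered samples' deviations from their group means correlated at 0.106 in mouse. With 2 samples a group both mouse pairs must give the same value, so it cannot decide on pairing. In cattle the deviations correlated at -0.193 to 0.335, and only number 1 correlated best with its own. With the replicate number as a block, 1816 mouse genes and 1 bovine gene passed, 0 of the set in either species, and the bovine ratio difference of -1.06 had an exact permutation p of 0.125.

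Depth limits Aqp7, Aqp11 and bovine ATP1B1, and bovine AQP11 with as few as 7 reads in a sample. Coverage along transcripts is not known, so levels per length are approximate.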
